A study of Mus musculus with 4 samples.

Results

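Potassium channel subunits were examined in extracts of mouse ear after exposure to diesel exhaust particles (DEPs). The members were all probes of the array whose RefSeq accession carries a mouse symbol made of Kcn, 1 or more letters and a number, such as Kcna1 or Kcnmb4. This gave 125 probes for 92 genes, out of 39429 probes on the array, of which 27655 had a symbol and represented 20971 genes. Of the 92 genes, 61 had 1 probe, 29 had 2 and 2 had 3, and the brightest probe on average stood for its gene. The rule for the members used names only.

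The extracts came from male BALB/c mice of 6 to 10 weeks of age, whose dissected tissue held the middle ear and the temporal bone around it. Exposure lasted 1 h a day over 5 days of inhalation, with tissue taken on day 14, and the control ears are described only as ears without this treatment. RNA of both kinds was hybridised together on 4 arrays of 1 slide, where Cy5 marked the ear labelled DEP and Cy3 the control ear. The study used 9 mice, but the number of mice behind an extract is not given in the sources used here, and p-values therefore measure the spread between arrays. The dissected tissue was not sorted, so fewer cells of a type and less RNA per cell cannot be told apart.

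Potassium channels let potassium ions leave or enter the cell along their gradient and thereby set the resting potential, end action potentials and return potassium to the blood or to the endolymph. Voltage-gated pores of the Kcna, Kcnb, Kcnc, Kcnd, Kcnh and Kcnq families open on depolarisation, inward rectifiers of the Kcnj family hold the membrane near the potassium potential, Kcnk channels leak at rest, and Kcnn, Kcnma and Kcnt channels open on internal calcium or sodium. Nerve and muscle cells use many of them together. In the inner ear, Kcnq1 with its partner Kcne1 secretes potassium into the endolymph, Kcnj10 of the stria vascularis generates the endocochlear potential, and Kcnma1 helps to repolarise hair cells.

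The values are log2 ratios within an array, with the Cy5 signal (labelled DEP) divided by the Cy3 signal (labelled control), so that a ratio of -1 is a 2-fold lower signal in the DEP channel. A gene was called measured where both channels of its probe were well above background on every array. The source names in the labels give the channels, but the same labels list both treatments under Cy5 and none under Cy3, and the source names were followed. This direction is opposite to the one that the study gives for the potassium channel genes it names. No dye was swapped, so a dye preference of a probe cannot be told apart from the exposure. Across all probes the ratios of arrays 1 and 2 correlated with r = 0.61, those of arrays 1 and 4 with r = -0.22, and the other pairs with r between 0.14 and 0.38, so that the 4 arrays did not show 1 common pattern.

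Of the 92 genes, 50 were measured (54.3%, against 68.1% of all named genes). Another 22 genes were above background in each channel on at least 1 array, though not always the same one, 5 in the control channel only (Kcnab2, Kcnh1, Kcnip2, Kcnj3 and Kcnj6), 2 in the DEP channel only (Kcnh8 and Kcnj14), and 13 in neither channel on any array (14.1%, against 18.1% of all named genes). Those 13 included Kcne1 of the inner ear, Kcnj1 of the kidney and Kcnk18 of sensory neurons. A ratio could be tested for 84 genes by the brightest probe.

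The members lay lower in the DEP channel, mainly on arrays 1 and 2. Among the 50 measured genes the mean ratio was below 0 for 37 genes (74.0%, against 44.3% of all measured genes), and the median over the genes was -0.47 against 0.04 for all measured genes. On arrays 1 to 4 the median of the members was -1.12, -0.74, -0.05 and 0.26, while that of all measured genes was -0.03, 0.09, 0.01 and 0.05. Arrays 1 and 2 thus had the low values, array 3 was near 0 and array 4 lay slightly above 0. Past 2-fold lower were 28 of the 50 members on array 1 (56.0%, against 7.99% of all measured genes), 17 on array 2 (34.0%, against 4.67%), 6 on array 3 (12.0%, against 2.85%) and 0 on array 4 (against 2.64%). Past 2-fold higher were Kcnk6 on array 1 (1 gene, against 7.59% of all measured genes), 0 genes on array 2 (against 0.462%), Kcnc2 on array 3 (1 gene, against 1.94%) and Kcna7 and Kcns3 on array 4 (2 genes, against 0.931%). The pattern of lower on arrays 1 and 2 and higher on array 4 was found in 26 members (52.0%, against 17.1% of all measured genes), whereas 5 were lower on all 4 arrays (against 10.2% of all measured genes) and 1 was higher on all 4 (2.0%, against 15.4%).

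**Figure D1:**
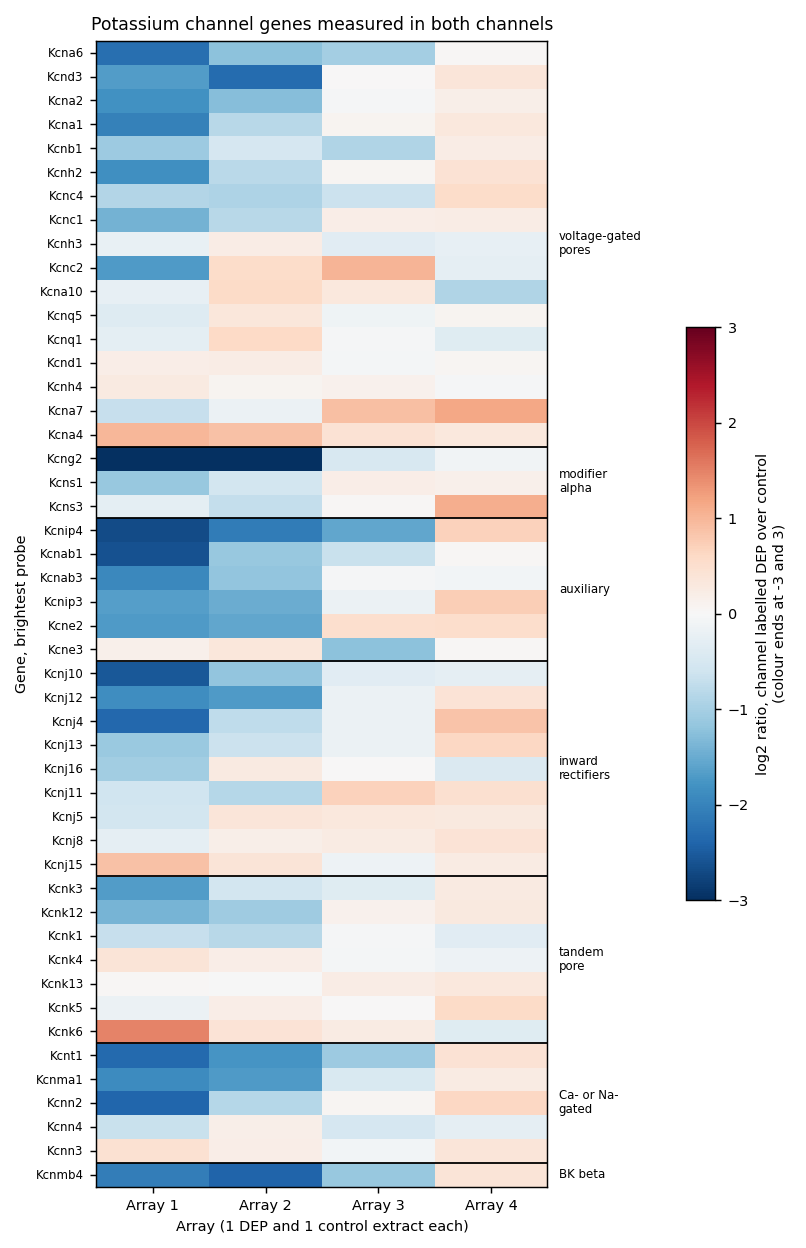
Log2 ratio of the DEP channel over the control channel for 48 of the 50 measured potassium channel genes (rows, brightest probe, grouped by kind of subunit) on arrays 1 to 4 (columns), with blue for lower and red for higher in the DEP channel and the colour scale ending at -3 and 3. Most rows are blue on arrays 1 and 2 and pale or red on array 4, with medians over all 50 of -1.12, -0.74, -0.05 and 0.26.

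No member passed limma's moderated test after Benjamini-Hochberg adjustment over all 31577 probes, and neither did any other gene (0.0% called). The smallest adjusted p of a member probe was 0.0922. It came from dim probes, the second Kcnd3 probe, above background only in the control channel of 1 array, and another above background in neither channel. With a mean ratio past 2-fold, 19 of the 84 tested genes were lower (22.6%, against 4.06% of all genes tested) and 2, Kcnk7 and Kcnj14, were higher (2.38%, against 2.15%). At an unadjusted p under 0.05, 16 were lower (19.0%, against 7.48%) and 4, Kcna4, Kcna5, Kcnk9 and Kcnj14, were higher (4.76%, against 9.18%). Within the 50 measured genes, 9 were past 2-fold lower (18.0%, against 2.76%) and 0 higher (against 0.798%), and at an unadjusted p under 0.05 there were 6 lower (12.0%, against 5.87%) and 1 higher (2.0%, against 6.66%). With 4 arrays an exact sign-flip test of a single gene cannot go below p = 0.125, so below the words lower and higher give the sign of a mean ratio and not a passed test. Without array 1 the number past 2-fold lower was 12 of 85 (against 512 of 18165 of all genes tested), and without array 4 it was 30 of 87 (against 1147 of 18371). When each array was instead corrected by normexp and centred on its median, 6 members were past 2-fold lower (against 179 of all 17949 genes tested), the median of all tested genes shifted from 0.04 to 0.21, and 8 members were among the 3795 genes that passed at an adjusted p under 0.05.

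The 2 channels were then read apart. Expressed as a share of the summed signal of all named genes, the 92 members made up 4.39, 5.27, 5.60 and 5.48 parts per 10000 in the DEP channel of arrays 1 to 4. In the control channel they made up 10.3, 9.75, 6.55 and 5.13 parts per 10000. The shares were thus closer together in the channel labelled DEP than in the channel labelled control. With the labels of the channels turned, the control extracts would be the ones closer together. For the 50 measured members the median SD between arrays was 0.35 on the log2 scale in the DEP channel and 0.56 in the control channel, and it was larger in the control channel for 36 genes (72%, against 57.5% of all measured genes, whose median SDs were 0.19 and 0.22).

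**Figure D2:**
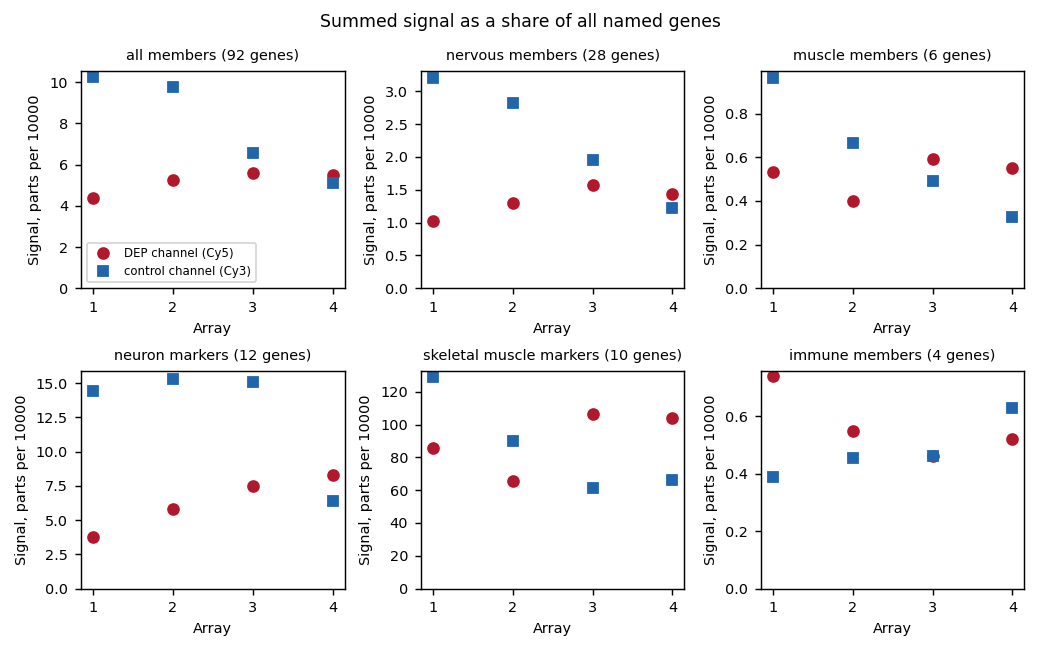
Summed signal of 6 gene lists as parts per 10000 of the signal of all named genes (vertical axes from 0) in the DEP channel (red circles) and control channel (blue squares) of arrays 1 to 4. The DEP channel of all members stays between 4.39 and 5.60, while the control channel lies between 5.13 and 10.3.

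Of the voltage-gated pores, 19 of 30 genes were measured, of which 15 were lower and 4 higher, with 3 past 2-fold lower and a median of -0.46. With normexp and median centring 12 were lower and 7 higher, with a median of -0.14 against 0.31 for all measured genes. Kcna6, a delayed rectifier of nerve fibres and among the 5 brightest member probes, had DEP signals of 878, 1014, 1361 and 1168 against control signals of 4176, 2399, 2740.0 and 1147. The channels overlapped through array 4 alone, whose control signal was within the range of the DEP extracts. Its ratios were -2.25, -1.24, -1.01 and 0.03, with a mean of -1.12 ± 0.93 (SD, n = 4; SE 0.38; adjusted p = 0.23).

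Kcna1 and Kcna2, which sit beside the nodes of Ranvier of myelinated axons, were low on arrays 1 and 2 only. The ratios of Kcna1 were -2.04, -0.84, 0.07 and 0.32, and those of Kcna2 were -1.81, -1.27, -0.03 and 0.19. Kcnd3, an A-type channel that delays the next spike and a member the study names, gave -1.68, -2.31, 0.01 and 0.36 by its brightest probe, a mean of -0.90 ± 1.30 (SD, n = 4; adjusted p = 0.39). Its second probe was above background in the control channel of 1 array only, and its bound was 1.28-fold lower in the DEP channel. Such a bound sets the mean of the brighter channel over all 4 arrays, after quantile normalisation between arrays, against a floor for the dimmer one. The floor is the lowest signal well above background, or the probe's own signal where that was higher. The mean also counts arrays where the brighter channel was not above background, so the bound is approximate and not a strict limit. Kcnd2, which carries the same kind of current in dendrites, had the lowest single ratios of the voltage-gated pores, at -4.47, -4.70, -0.89 and 0.72, with the control channel above background on 3 arrays. The control signal of Kcnd2 was 3104 and 1854 on arrays 1 and 2 and 193 and 28.5 on arrays 3 and 4, whereas the DEP signal was between 47.0 and 140.0.

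The 3 probes of Kcnc1, a channel of fast-firing neurons, were all measured but differed in size. Their mean ratios were -0.46, -0.80 and -1.46, the last with -3.28 and -2.92 on arrays 1 and 2 and 0.25 and 0.11 on arrays 3 and 4. All 3 probes were thus low on arrays 1 and 2 and slightly above 0 on arrays 3 and 4. Kcnb2, a delayed rectifier, was lower on all 4 arrays with a mean of -1.19 ± 0.93 (SD, n = 4; adjusted p = 0.22), but its DEP channel was above background on 2 arrays only and the mean was -0.27 with normexp and loess. Kcnh1, a slowly opening channel of brain, was above background only in the control channel of 2 arrays. Its bound was 1.23-fold lower in the DEP channel, with ratios of -2.25, -2.71, -2.16 and 0.23.

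Kcna4, an A-type channel of heart and brain, went the other way and was the only measured member higher on all 4 arrays. In the DEP channel its signal was 2279.6, 1522, 1044 and 1085, against 1142, 827, 769 and 872 in the control channel. The ranges of the channels overlapped between arrays, but not within one. The ratios were 1.00, 0.88, 0.44 and 0.32, and the mean was 0.66 ± 0.33 (SD, n = 4; SE 0.16; adjusted p = 0.17). With normexp and median centring the ratio of Kcna4 was 0.97 and its adjusted p was 0.020. Under that setting the median of all measured genes was 0.31, and 3795 of 17949 genes tested passed. Kcna5, the channel of the ultrarapid atrial current, was also higher on each array, with ratios between 0.33 and 0.79, but its control channel was above background on 2 arrays only. A second, dimmer Kcna5 probe gave -0.61, 2.97, 1.47 and 2.07. With normexp and median centring the mean ratio of Kcna5 was 0.07 in place of 0.59. Kcnq1, the potassium channel of the stria vascularis, had a mean of -0.02 from ratios of -0.29, 0.61, -0.03 and -0.35, and Kcnd1 (mean 0.10) and Kcnh4 (mean 0.11) varied little.

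**Figure D3:**
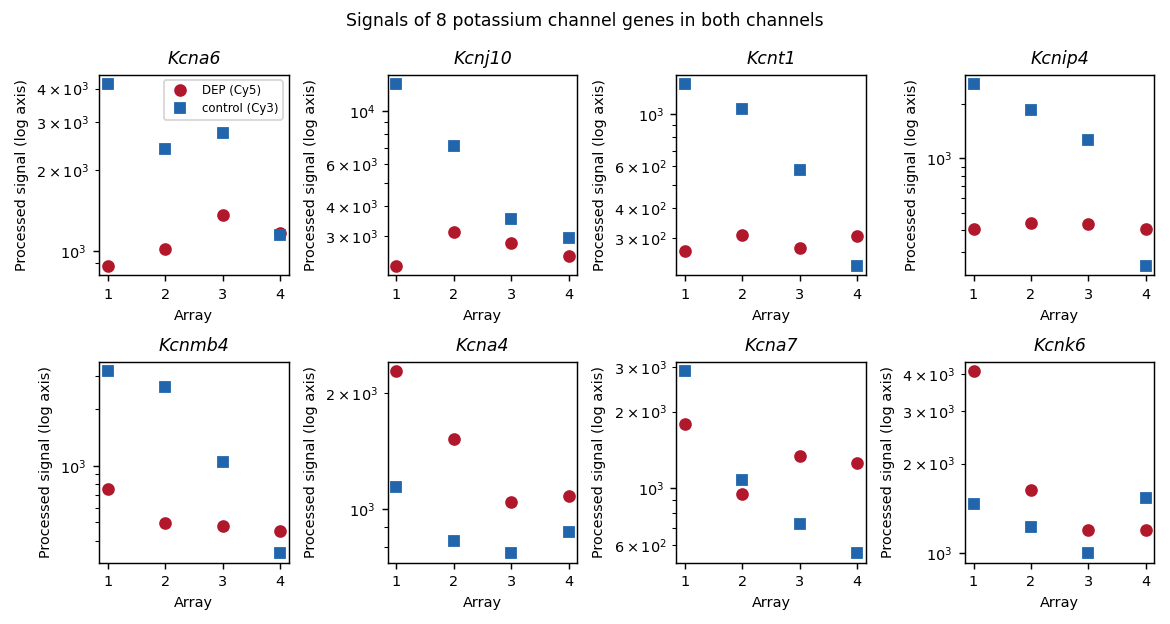
Processed signal (log axis, range differing by gene) of 8 potassium channel genes in the DEP channel (red circles) and control channel (blue squares) of arrays 1 to 4. For Kcnt1, Kcnip4 and Kcnmb4 the control signal is above the DEP signal on arrays 1 to 3 and below it on array 4, Kcna4 is higher in the DEP channel on all arrays, and Kcna7 is lower on arrays 1 and 2 and higher on arrays 3 and 4.

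Promoter sequence from RefSeq for assembly GRCm38.p6 is shown for 3 of these genes as examples of 3 patterns of ratios: Kcnj10 was low on all arrays, Kcnc1 was low on arrays 1 and 2 by 3 probes, and Kcna4 was high on all arrays. Exhaust particles carry aromatic hydrocarbons that activate the aryl hydrocarbon receptor, whose response element has the core GCGTG. Each window runs from 250 bases before to 50 bases after the gene start, is written 5′ to 3′ along the gene, and has a match to GCGTG on either strand in capitals. The windows are chr1:172340960-172341259 (plus strand) for Kcnj10, chr7:46396218-46396517 (plus strand) for Kcnc1 and chr2:107290339-107290638 (plus strand) for Kcna4.
Kcnj10: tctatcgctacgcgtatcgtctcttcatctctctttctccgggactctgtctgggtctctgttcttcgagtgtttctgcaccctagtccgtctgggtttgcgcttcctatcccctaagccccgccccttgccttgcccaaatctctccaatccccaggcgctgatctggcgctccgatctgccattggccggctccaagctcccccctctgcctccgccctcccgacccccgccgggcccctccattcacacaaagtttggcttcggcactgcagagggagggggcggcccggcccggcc
Kcnc1: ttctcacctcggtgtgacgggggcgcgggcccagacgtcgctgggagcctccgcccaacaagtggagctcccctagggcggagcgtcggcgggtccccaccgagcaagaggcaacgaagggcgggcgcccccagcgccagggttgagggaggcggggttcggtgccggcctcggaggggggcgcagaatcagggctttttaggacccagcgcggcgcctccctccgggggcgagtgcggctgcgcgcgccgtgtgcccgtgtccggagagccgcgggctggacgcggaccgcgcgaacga
Kcna4: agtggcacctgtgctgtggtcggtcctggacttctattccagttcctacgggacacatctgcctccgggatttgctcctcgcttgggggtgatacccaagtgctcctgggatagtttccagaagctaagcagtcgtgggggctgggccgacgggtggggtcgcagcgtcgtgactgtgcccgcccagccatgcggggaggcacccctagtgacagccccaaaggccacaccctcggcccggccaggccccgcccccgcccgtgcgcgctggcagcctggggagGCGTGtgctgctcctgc
The Kcna4 window held 1 match, 34 bases after the gene start, and the other windows shown held 0. A window was given for 67 of the 92 members, and 29 of these held a match (43.3%, against 35.2% of all 27025 genes with a window). Of the 9 measured members past 2-fold lower, 5 had a window and 1 held a match, and of the other measured members 10 of 31 did (32.3%). A match describes the letters of the window and is not a measured binding site.

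Among the modifier subunits, which form no channel alone but change Kcnb channels, 3 of 10 genes were measured. Kcng2, a silent subunit of this kind, had control signals of 915 and 649 on arrays 1 and 2 and of 132 and 49.6 on arrays 3 and 4, against DEP signals between 40.2 and 93.7. Its ratios were -3.47, -4.01, -0.49 and -0.11, and the mean of -2.02 ± 2.00 (SD, n = 4; adjusted p = 0.27) was the lowest of the measured members. A second, dimmer Kcng2 probe did not show this and had ratios between 0.34 and 0.77, with the DEP channel above background on 1 array and the control channel on none. Kcns1 and Kcns3 had mean ratios of -0.33 and 0.03.

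All 6 measured auxiliary subunits of voltage-gated channels, out of 11, were lower, with a median of -0.73 and 2 past 2-fold. Kcnip4, a calcium-binding partner of Kcnd channels, had nearly constant signals of 404, 436, 432 and 407 in the DEP channel, against 2607, 1859.5, 1264 and 252 in the control channel. Its ratios were -2.69, -2.09, -1.55 and 0.69, a mean of -1.41 ± 1.48 (SD, n = 4; SE 0.58; adjusted p = 0.29). The second Kcnip4 probe, above background only in the control channel of 3 arrays, had a bound of 2.28-fold lower in the DEP channel. Its ratios were -3.24, -2.81, -2.32 and 1.44. Kcnip3, which also binds Kcnd channels and was among the 5 brightest member probes, gave -1.66, -1.48, -0.17 and 0.73, and its second, dimmer probe, above background on 3 arrays in the DEP channel and 2 in the control channel, gave -0.51, -0.09, 0.82 and 1.06.

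The beta subunits Kcnab1 and Kcnab3, which bind Kcna channels and speed their closing, had mean ratios of -1.09 ± 1.12 and -0.81 ± 0.92 (SD, n = 4 each). Kcnab3 was lower on all 4 arrays, at -1.94, -1.18, -0.03 and -0.08, although arrays 3 and 4 were within 0.1 of 0. Kcnip1, a further Kcnd partner and a member the study names, was above background on 2 arrays in each channel, with ratios of -2.34, -2.41, 0.96 and 0.17. Its second probe, above background only in the control channel of 2 arrays, gave -2.26, -2.52, -1.83 and -0.71. The ratio of Kcne1 is not a measurement of expression, as neither channel was above background on any array. Kcne2 had ratios of -1.70, -1.56, 0.50 and 0.53, and Kcne3 had ratios between -1.23 and 0.34.

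Of the inward rectifiers, 9 of 15 genes were measured, 6 lower and 3 higher, with a median of -0.30. After normexp and median centring 5 were lower and 4 higher, with a median of -0.06 against 0.31 for all measured genes. Kcnj10, which buffers potassium in astrocytes, satellite glia and the stria vascularis, was the brightest member probe on average. Its DEP signals were 2236, 3111, 2796 and 2459, and its control signals were 13026, 7109, 3516 and 2946. The control signal was higher on every array, by most on array 1, and the ratios were -2.54, -1.19, -0.33 and -0.26. Their mean was -1.08 ± 1.06 (SD, n = 4; SE 0.42; adjusted p = 0.27). Kcnj16, which pairs with Kcnj10 in glia and in the ear, was lower on arrays 1 and 4 and slightly above 0 on arrays 2 and 3, at -1.05, 0.26, 0.02 and -0.43.

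The Kcnj3, Kcnj6 and Kcnj9 subunits form the G-protein-gated channels by which transmitters slow neurons. Kcnj3, which the study names, was above background only in the control channel of 2 arrays. Its bound was 1.05-fold lower in the DEP channel, and its second probe gave no bound. Kcnj9 was above background on 2 arrays in each channel and had no ratio on array 4, and Kcnj6 was above background in the control channel of 1 array. Kcnj5, the cardiac partner of Kcnj3, had -0.55, 0.35, 0.33 and 0.30. Kcnj14, a rectifier of motor neurons, was above background in the DEP channel of 3 arrays and in the control channel of none, and its ratios were 0.34, 0.51, 1.41 and 1.92, with a mean of 1.05 that was 0.21 with normexp and loess. Kcnj4 and Kcnj12, strong rectifiers of neurons and muscle, had mean ratios of -0.61 and -0.83.

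Of the tandem pore channels 7 of 14 genes were measured, 3 lower and 4 higher, with a median of 0.09. With normexp and median centring that median was 0.03, against 0.31 for all measured genes. Kcnk1, a weak leak channel of epithelia and glia, was lower on all 4 arrays with ratios of -0.70, -0.83, -0.04 and -0.34 (mean -0.48 ± 0.36, SD, n = 4; adjusted p = 0.25). Kcnk3, an acid-sensitive leak channel, had -1.67, -0.54, -0.37 and 0.27. Kcnk6, found in epithelia and leukocytes, had DEP signals of 4108, 1629, 1191 and 1196 and control signals of 1465, 1220.2, 997 and 1530.3. Array 1 alone stood high, with a ratio of 1.49, while array 4 was at -0.36.

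Kcnk10, a stretch-sensitive leak channel of neurons whose control channel was above background on 3 arrays, had -3.07, -2.98, -1.62 and 0.43. Kcnk7, a subunit not known to pass current alone, had the widest ratios of all, at 4.35, 0.84, 2.23 and -2.19, and its mean of 1.31 ± 2.74 (SD, n = 4; adjusted p = 0.54) was within that spread. The 7 measured epithelial markers had medians of -0.06, 0.35, -0.26 and -0.50 on the same arrays, with Krt5 at 2.17 and Krt18 at -0.47 on array 1, and their part in the Kcnk6 and Kcnk7 values was not tested. Kcnk9, an acid-sensitive channel of the cerebellum, was higher on each array, between 0.21 and 0.78, with the control channel above background on 3 arrays, and its mean of 0.51 was 0.07 with normexp and median centring.

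Of the pores gated by internal calcium, sodium or pH, 5 of 8 genes were measured, 4 lower and 1 higher, with a median of -0.64. Kcnt1, the sodium-activated channel of neurons, had DEP signals of 266, 309, 272 and 307 and control signals of 1339, 1050.5, 580.2 and 228. The ratios were -2.33, -1.76, -1.09 and 0.43, with a mean of -1.19 ± 1.19 (SD, n = 4; SE 0.47; adjusted p = 0.28). The control signals fell on both sides of the DEP signals.

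Kcnma1, the large-conductance BK channel of hair cells, neurons and smooth muscle, was read differently by its probes. The brightest one gave -1.89, -1.70, -0.47 and 0.24 and a mean of -0.95, whereas another measured probe gave -0.43, 0.13, 0.34 and 0.57 and a mean of 0.15. Both ordered array 1 lowest and array 4 highest. Kcnmb4, the BK beta subunit of brain, was the only measured gene of its class of 4, with DEP signals of 754, 497, 479.7 and 450.2 and control signals of 3186, 2629, 1048 and 343. Its 2 probes gave means of -1.30 ± 1.25 and -1.17 ± 1.05 (SD, n = 4; adjusted p = 0.26 and 0.25). Kcnn2, a small-conductance channel of neurons and outer hair cells, had -2.37, -0.86, 0.06 and 0.62, and Kcnn4, the calcium-activated channel of leukocytes and epithelia, had -0.67, 0.17, -0.51 and -0.27.

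Members known from nervous tissue were compared with those of the inner ear, muscle and immune cells. Of the 28 nervous members 14 were measured, 13 lower and 1 higher, with 5 past 2-fold and a median of -0.68. Their medians on arrays 1 to 4 were -1.83, -0.99, -0.40 and 0.22. Of the 25 measured members on none of these tissue lists, 17 were lower and 8 higher, with a median of -0.48. Their medians on arrays 1 to 4 were -1.13, -0.72, -0.04 and 0.30, and the difference between the lists was not tested. This remainder held genes described above as neural, such as Kcna6, Kcnmb4 and Kcnn2, so it is not a group from outside nervous tissue. Of the 7 inner ear members, 4 were measured, all lower by their brightest probe, with a median of -0.63 and means of -1.08 for Kcnj10, -0.95 for Kcnma1, -0.30 for Kcnj16 and -0.02 for Kcnq1. With normexp and median centring 2 of these 4 were above 0, against 11674 of all 14288 measured genes. Their median was then -0.26, against 0.31 for all measured genes. Kcnmb1, the smooth muscle BK subunit also placed on that list, had ratios between -0.92 and 0.33 and was not measured on every array.

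The 5 measured muscle members, of 6, had a median of -0.08. Kcna7, a channel of skeletal and heart muscle, had -0.69, -0.19, 0.90 and 1.17, although its second measured probe had 0.22, 0.27, -0.38 and -0.27. Kcnj11, the pore of the ATP-sensitive channel, had -0.61, -0.86, 0.68 and 0.48, and Kcnj8, the pore of the vascular form of that channel, had -0.26, 0.17, 0.26 and 0.41. Kcnj12 had -1.87, -1.71, -0.16 and 0.41, Kcnc4 had -0.87, -0.93, -0.63 and 0.55, and Kcnj2, above background in the control channel of 2 arrays only, lay between -0.40 and -0.14. The medians over the 5 were -0.69, -0.86, 0.26 and 0.48 on arrays 1 to 4. Of the 4 immune members, 3 were measured with a median of 0.14, from Kcnk6 at 0.45, Kcnk13 at 0.14 and Kcnn4 at -0.32. Kcna3, the lymphocyte channel, was at 0.27 with the control channel above background on 2 arrays.

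**Figure D4:**
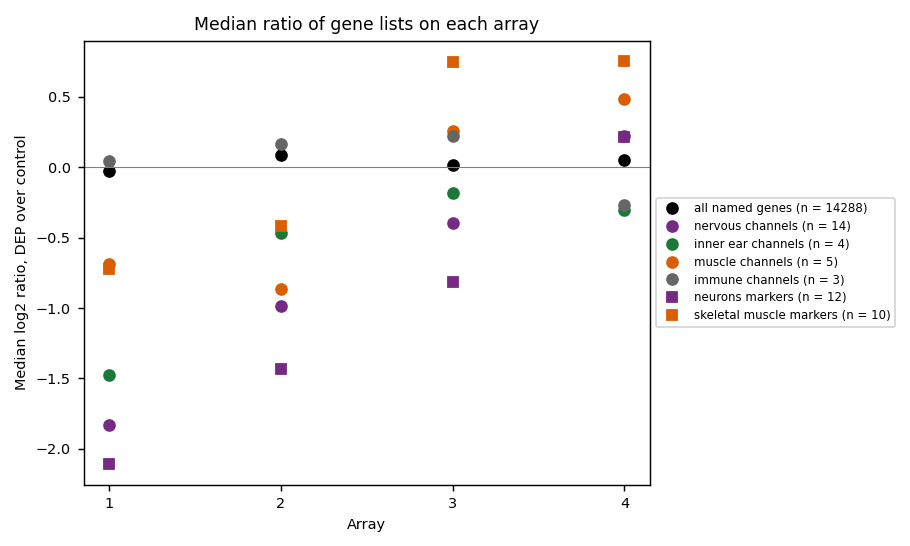
Median log2 ratio of gene lists (vertical axis) on arrays 1 to 4 for potassium channels of nervous tissue, inner ear, muscle and immune cells (circles), for neuron and skeletal muscle markers (squares) and for all measured genes (black). The nervous channels lie at -1.83, -0.99, -0.40 and 0.22 and the neuron markers at -2.11, -1.43, -0.82 and 0.22.

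Markers of the tissues were read beside these lists. All 12 neuron markers were measured and lower, with medians of -2.11, -1.43, -0.82 and 0.22 on arrays 1 to 4, and their summed share was 3.78 to 8.27 parts per 10000 in the DEP channel and 6.40 to 15.3 in the control channel. For Syt1, the calcium sensor of synaptic vesicles, the ratios were -4.05, -3.21, -3.16 and -0.34. Of the 12 cerebellum markers 6 were measured, all lower with a median of -1.37, and their share was 10.9 to 20.6 in the DEP channel and 12.3 to 46.1 in the control channel. Most of that share was Pvalb, which fast skeletal muscle also expresses, with a signal of 119043 out of 132352 in the DEP channel and 233208 out of 332839 in the control channel of array 1. The Purkinje cell gene Calb1 and the granule cell gene Cbln3 were above background in the control channel of 2 arrays and in the DEP channel of none. All 9 astrocyte markers were measured, 8 lower, with a median of -1.12 and a share of 7.84 to 11.1 in the DEP channel and 8.87 to 32.9 in the control channel. Brain markers thus moved on the same arrays as the nervous channels and Kcnj10, and their part in those ratios was not tested.

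The 10 skeletal muscle markers, all measured, had medians of -0.72, -0.42, 0.75 and 0.76, and their share was 65.8 to 106 in the DEP channel and 61.1 to 129 in the control channel. Like these markers, Kcnj11 and the brightest Kcna7 probe were below 0 on arrays 1 and 2 and above 0 on arrays 3 and 4, but Kcnj12 and Kcnc4 were still below 0 on array 3, Kcnj8 was above 0 on array 2, and the second Kcna7 probe went the other way. The part of muscle tissue in these values was not tested. The medians were -0.01 for 5 measured inner ear markers of 12, 0.20 for 7 epithelial markers and 0.00 for 8 leukocyte markers. Of the inner ear markers Coch and Otos were measured, whereas Kcne1 and the outer hair cell motor gene Slc26a5 were above background in neither channel on any array and Tecta was not in the control channel.

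Genes whose products work with the channels were compared from 2 further lists. Of 19 channel partners 15 were measured, 14 lower and 1 higher, with 4 past 2-fold and a median of -0.79, and 0 passed after adjustment. Dpp6 and Dpp10, which bring Kcnd channels to the membrane, had mean ratios of -1.21 and -1.30, and Dlg4, a scaffold that clusters Kcna channels, had -1.36. Adam22, a receptor found beside Kcna channels on axons, had -1.04 and its ligand Lgi1 had -0.85. The ratios of Dpp6 on arrays 1 to 4 were -2.37, -1.80, -0.99 and 0.34.

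Of the potassium pumps, cotransporters and cochlear gap junction genes, 11 were measured, 8 lower and 3 higher. Their median of -0.31 became 0.13 with normexp and median centring, while that of all measured genes went from 0.04 to 0.31. Slc12a5, the chloride exporter of neurons, had -3.72, -5.31, -0.48 and 0.22. Slc12a2, which loads potassium into the stria vascularis, had -0.66, 0.23, -0.48 and -0.31, and the gap junction genes Gjb2 and Gjb6 of the cochlea had mean ratios of -0.31 and -0.42.

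The arrays were also compared over the members alone. Across the 50 measured genes, r was 0.81 between arrays 1 and 2, 0.41 between arrays 1 and 3 and 0.46 between arrays 2 and 3, but -0.15, -0.22 and 0.02 between array 4 and arrays 1, 2 and 3. These describe genes of 1 tissue hybridised on 1 slide and are not independent points. Kcna6, Kcnip4, Kcnt1 and Kcnmb4 were below -1 on arrays 1 to 3 and above 0 on array 4.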

How the data were processed

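The authors hybridised ear RNA to 4 arrays and quantified the spots with Agilent Feature Extraction 10.10.1.1, as named in the submitters' processing notes. The deposited intensity of each channel is background-subtracted and corrected for the dyes, and the log10 ratio deposited beside it divides Cy5 by Cy3. The deposited flags for spots well above background, outliers and saturation were used as such, and 0 spots were saturated.

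Ratios were converted to log2, flagged spots (164 to 274 per array) and spots without a ratio (6179 to 8558 of 43020) were left out, and 31577 probes with at least 3 ratios were fitted against 0 with limma 3.58.1 in R 4.3.3 (lmFit, eBayes, prior degrees of freedom 1.98, two-sided, Benjamini-Hochberg over all probes). Well above background were 65.4% to 68.9% of probes in Cy5 and 59.2% to 68.0% in Cy3, and the number of arrays limits the precision. On simulated ratios for DEP against control over 31577 probes, the fit recovered 61 of 100 probes changed by 2 and 22 of 100 changed by 1 on the log2 scale, with 2 false among 85 called. Python 3.11.15 with pandas 2.3.3, numpy 2.4.6 and matplotlib 3.10.9 made the tables and figures.

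Probe names came from the RefSeq table of GRCm38.p6. The members and lists were chosen with earlier results of these data known. The genes named are those the study names, the 8 largest mean ratios per direction with the same sign on all arrays, the 5 brightest, the inner ear, muscle and immune lists, genes whose measured probes differ by over 1, and a gene with an outlying array. Kcna6, Kcnab1, Kcnip4, Kcnmb4, Kcnt1, Kcnd2, Kcnk10, Kcnj9, Kcnb2, Kcnk7, Kcnj14, Kcna5 and Kcnk9 and the other genes in the text were named after their values were seen. The alternatives were normexp (offset 50, on median spot signals in place of the mean signals planned, which the files lack) with loess or median centring, the deposited ratio table, filters on background, flagged spots kept, an intensity trend, no moderation, averaging over the probes of a gene and leaving out each array. The qRT-PCR and pathway analyses were not analysed here, and some members counted above are not reported here by name.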

Additional observations from a re-analysis of the deposited data

Results flagged for a closer look

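The ratio of Kcnj5, a subunit of the G-protein-gated atrial channel, was -0.55 on array 1, apart from the other 3 arrays at 0.30 to 0.35. The gap to the nearest array was 0.947 of the whole range, above Dixon's limit for 4 values. It was the only one of 62 values tested that stood apart in this way, while chance gives about 1 in 20.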

How the results depend on the processing

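The median log2 ratio of the tested members, -0.45, was below 0 under every alternative run, at -0.19 after loess and -0.23 after median centring, both with normexp, and -0.69 to -0.14 when 1 array was left out. The 19 genes past 2-fold lower became 10 with normexp and loess, 6 with median centring, 9 with both channels above background and 12 with 1 channel above background, while the count over all genes tested went from 728 to 319, 179, 395 and 444. The 2 past 2-fold higher became 0, 0, 0 and 1 under these settings, and the count over all genes went from 386 to 71, 350, 114 and 224. The 16 genes lower at an unadjusted p under 0.05 became 21 with median centring, 7 with both channels above background, 10 with 1 channel and 8 without moderation (1342 over all genes tested, becoming 1368, 993, 1002 and 958), and the 4 higher became 1 with loess and 1 with both channels (1648 over all genes, becoming 1413 and 1220). The count at an adjusted p under 0.05 was 0 of 84 members, but 8 with median centring, against 3795 of 17949 over all genes tested. Kcne1 (-0.54, adjusted p = 0.021) and Kcna4 (0.97, adjusted p = 0.020) were among the 8. Neither channel of Kcne1 was above background on any array. The cause of the larger count was not tested.

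Leaving out 1 array gave 12 to 30 members past 2-fold lower and 0 to 2 higher (512 to 1147 and 299 to 785 over all genes tested). At an unadjusted p under 0.05 it gave 9 to 32 lower and 2 to 7 higher (721 to 1819 and 839 to 1827 over all genes tested), and 0 at an adjusted p under 0.05. Among the members, the lowest of these counts for genes lower came without array 1 and the highest without array 4. The sign turned with median centring for Kcnj16 (0.10), Kcnq1 (0.18), Kcna3 (-0.078) and Kcnn4 (0.015). Under that setting the median of all measured genes moved from 0.04 to 0.31. Leaving out 1 array gave -0.22 to 0.095 for Kcnq1, above 0 without array 1 or 4, and -0.33 to 0.19 for Kcnj11, above 0 without array 1 or 2. The other 517 values checked, which covered only some of the genes, kept their sign and their side of an adjusted p of 0.05. They did not all keep their side of the 2-fold limit. Dim genes shrank with normexp and loess or with median centring. Kcnj14 went from 1.05 to 0.21 or 0.012, Kcnb2 from -1.19 to -0.27 or -0.42 and Kcnj3 from -2.72 to -0.42 or -0.59. Kcna5 went from 0.59 to 0.16 or 0.072 and Kcnk9 from 0.51 to 0.16 or 0.068. The ratio within an array already pairs its 2 extracts. No further replicate block was fitted, since all arrays belong to 1 group. Signal over background limits the 42 members not measured in both channels on all arrays.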
